A study of Rattus norvegicus with 6 samples.

Results

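Intergenic distal accessible sites (ACS) within 100 kb of a gene were taken from the ATAC-seq table of rat pancreatic islets. An ACS belonged to the set when its class was distal, its position was upstream or downstream of its nearest listed gene, and its shortest distance to that gene was at most 100 kb. This rule gave 31821 of the 101603 distinct ACS, or 31.3%. No measured accessibility entered the rule, but the ACS themselves were peaks called on these same libraries. Islets came from Sprague-Dawley rats with no treatment or genetic change. The Adult group held 3 libraries (replicates 4, 5 and 6), 1 from each adult male of around P90. The P10 group held 3 libraries (replicates 1, 2 and 3), each from a few pooled male and female pups of 1 litter, killed at 10 days after birth. Islet isolation also differed: P10 pancreases were pooled and shaken by hand in collagenase, while in adults collagenase was injected into the pancreatic duct. Age, sex, islet isolation and the pooling of pups within a litter therefore cannot be told apart in any comparison below. Islets hold beta cells together with other endocrine cells, vessels and supporting cells, and in such whole-islet libraries a change in the share of a cell type cannot be told apart from a change of accessibility within it.

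ATAC-seq uses the Tn5 transposase, which inserts adapters where DNA is not covered by nucleosomes, so that the number of integrations in a site reads its accessibility. Open sites far from gene starts are mostly enhancers and related elements, where sequence-specific transcription factors bind and from where they act on promoters through looping. Enhancers differ more between cell types and stages than promoters do, and the nearest gene is not always the gene they act on. Rat islet cells at P10 still divide and respond poorly to glucose, whereas adult beta cells divide rarely and release insulin on demand, and the comparison of both ages asks which sites open or close over that passage.

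Sequences were at hand for the intergenic distal ACS that the study cloned for reporter assays, and they are shown because they are elements near beta cell transcription factor genes whose accessibility differed between the ages. Both Pax6 elements lie upstream of Pax6, a paired homeodomain factor needed for endocrine cells and for hormone genes, at 32999 bp and 24546 bp from the gene. The element of Neurod1, the basic helix-loop-helix factor that binds insulin gene E-boxes, lies 50928 bp upstream. Their positions are given on Rn5, the strand is not stated, and the letters are written in the order of the source. Capitals mark TGANTCA (the AP-1 site) and CAGATG (the E-box form bound by NeuroD1) in the first. They mark CAGATG and CTATTTTTA (a form of the MEF2 site) in the next, and TGANTCA in the last. Other forms of the MEF2 site were not searched. For the wider Pax6 element, 541 bp long, the source held the first 399 bases, of which bases 159 to 330 are shown.
Pax6, chr3:102293937-102294227: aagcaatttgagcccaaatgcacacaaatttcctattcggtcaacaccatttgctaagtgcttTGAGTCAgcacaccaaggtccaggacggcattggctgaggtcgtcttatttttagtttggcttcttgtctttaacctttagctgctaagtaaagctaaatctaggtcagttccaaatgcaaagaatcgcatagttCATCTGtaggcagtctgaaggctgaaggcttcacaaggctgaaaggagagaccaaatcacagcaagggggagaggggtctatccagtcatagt
Neurod1, chr3:73029107-73029383: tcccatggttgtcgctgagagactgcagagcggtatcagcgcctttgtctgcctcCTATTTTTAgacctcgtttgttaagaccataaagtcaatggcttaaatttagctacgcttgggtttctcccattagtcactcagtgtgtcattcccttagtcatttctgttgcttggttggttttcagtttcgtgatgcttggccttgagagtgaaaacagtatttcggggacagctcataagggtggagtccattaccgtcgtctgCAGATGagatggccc
Pax6, part of chr3:102302140-102302680: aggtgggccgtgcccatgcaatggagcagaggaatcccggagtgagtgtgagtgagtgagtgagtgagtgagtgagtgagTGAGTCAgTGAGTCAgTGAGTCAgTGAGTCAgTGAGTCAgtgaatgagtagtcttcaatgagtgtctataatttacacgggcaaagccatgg

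Counted from 1 at the first base, the 291 bp Pax6 element held TGANTCA at base 64 and CAGATG at base 199 on the other strand. It held 4 matches of CANNTG, the general E-box, of which the last is the CAGATG match, and 1 match of TGCTGA (the MAF recognition core) on the other strand at base 68, overlapping the AP-1 letters. The Neurod1 element held CTATTTTTA at base 56 and its only E-box at base 263. The shown part of the wider Pax6 element held TGANTCA 5 times, at bases 239, 247, 255, 263 and 271, inside a run of TGAG repeats. Each motif was searched on both strands. Among 33469 RefSeq promoters (GRCr8) trimmed to the same length as each element, TGANTCA was in 7.22% at the length of the first and in 4.45% at that of the last, CAGATG was in 16.2% and 15.5% at the lengths of the first and the next, and CTATTTTTA was in 0.505%. TGTTTAC (FOXA), GTTGCC (RFX) and CAACAGGTG (SCRT1 core) had no match in the letters shown. The 4.45% holds for the 172 bases shown, out of an element of 541 bp, and longer stretches hold a match more often. Promoters also differ from distal elements, so these shares are not a background for such sites. A match of letters is not a bound site.

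All 3 reporter elements were more accessible in adults, in each case without overlap between the ages. Values per library are in CPM, the integrations in an ACS relative to those in all ACS, with library sizes scaled by TMM factors (trimmed mean of M values). The 291 bp Pax6 element had 6.51, 4.19 and 5.29 CPM in adults 4, 5 and 6, against 1.30, 1.43 and 2.12 CPM in P10 libraries 1, 2 and 3. Its log2 fold change of adult over P10 was 1.72 ± 0.33 (SE), with an adjusted p of 0.00103 by the quasi-likelihood test of edgeR with Benjamini-Hochberg adjustment over all ACS. The 541 bp Pax6 element had 25.6, 21.4 and 19.98 CPM in adults and 8.88, 9.06 and 11.7 CPM at P10, a log2 fold change of 1.18 ± 0.21 (adjusted p = 4.08e-04, same edgeR test). The Neurod1 element had 5.87, 4.19 and 8.38 CPM in adults and 2.19, 1.78 and 2.01 CPM at P10, a log2 fold change of 1.60 ± 0.32 (adjusted p = 0.00137, same edgeR test). Their calls held in each of the 6 fits from which 1 library was dropped. These elements were picked by the study from these libraries, so that their direction is not independent evidence. Of the 16 intergenic distal ACS of Pax6, 3 were Up and 1 was Down, and the Neurod1 element was the only one called of 11 near that gene.

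Before scaling, adult libraries held between 7916919 and 11903909 integrations in ACS and P10 libraries between 13491534 and 21168463, of which 2082109 to 3157111 and 3449741 to 5556643 lay in the intergenic distal ACS. TMM factors ran from 0.93 to 1.04. The sites were open at a low level. Their median was 4.39 CPM in adults and 4.21 CPM at P10, and from the 5th to the 95th percentile it ran from 0.874 to 28.7 CPM in adults and from 1.07 to 25.2 CPM at P10. The median site held 60.7 integrations per library, against 235.5 in ACS at transcription start sites (TSS), and 10.4% of the set held fewer than 20. Across the 31821 sites, log2 CPM correlated between libraries of the same age with Pearson's r from 0.91 to 0.92 in adults and from 0.93 to 0.94 at P10, and between libraries of different ages with r from 0.88 to 0.91. These are descriptions across sites of the same libraries. A handful of very high sites carried a visible part of the signal: the 10 with the highest mean count held between 1.78% and 3.78% of the integrations in the set, the most in adult 5. Of these 10, only the site near Snai2 was called, with 495, 1349 and 580 CPM in adults and 199, 506 and 507 CPM at P10 (log2 fold change 0.999 ± 0.269, adjusted p = 0.0165, edgeR), and its ages overlap. Its call held in 5 of the 6 fits from which 1 library was dropped.

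By position, the sites lay at a median of 35316 bp from their nearest gene, with quartiles of 18107 and 61141 bp, and 56.3% were upstream and 43.7% downstream. All but 1 of the sites were at least 10 kb from the start of the nearest gene, so that the 2754 within 10 kb of a gene were nearly all downstream of its end (2663). The median width was 361 bp, with quartiles of 272 and 507 bp, and 590 sites were at least 1000 bp wide. They covered 13.3 Mb in all. Intergenic here means outside the nearest listed gene. For 5343 sites (16.8%) the midpoint lay inside the span of another listed gene, and these sites were kept, since the rule goes by the nearest gene. They include sites named below near Hddc2, LRRTM1, Cxcl12 and Fosl2. The set had 9028 nearest genes, with a median of 3 sites per gene. A single site was found at 2655 genes and 10 or more at 430 genes. The 5 genes with the most sites were LOC100359783 (36), the ribosomal RNA precursor gene Rn45s (31), Nid2-ps16 (29), LOC100361783 (28) and Cyp2b1 (23). These dense groups changed little, with 0 to 2 Up sites and 0 to 2 Down sites each.

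Over the set as a whole, the middle of the accessibility change was near 0 and the called changes went more often towards adults. An ACS was called Up (more accessible in adults) or Down (more accessible at P10) at p under 0.05 and an adjusted p under 0.2, the limits the study used. Of the intergenic distal ACS, 4021 (12.6%) were Up and 2130 (6.69%) were Down. Over all 101603 ACS these shares were 12.3% and 6.63%, so that the set stood close to the background. The study itself reported more Down than Up ACS at these limits, the reverse of the split found here. What made the 2 fits differ was not tested. The median log2 fold change was -0.01 in the set and -0.01 over all ACS. Up sites had a median log2 fold change of 0.87 and Down sites of -0.95, and changes of more than 1 on the log2 scale were found at 1402 Up and 930 Down sites. Values of the 3 adult libraries lay wholly above or wholly below those of the 3 P10 libraries at 25.3% of the set, against 24.7% of all ACS. This held for 3410 of the Up sites and 1758 of the Down sites. Leaving out each library in turn, 50.9% of the Up sites and 26.8% of the Down sites kept their call in all 6 fits. Without P10 library 2 there were 2529 Up and 1025 Down sites, and without P10 library 3 there were 1348 Down sites. The split between Up and Down depended on scaling: without TMM factors it was 3359 Up to 3219 Down, and with total reads as library sizes, which moved the median log2 fold change of the set to -0.84, it was 324 Up to 19023 Down. Directions below are relative to the bulk of ACS.

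**Figure D1:**
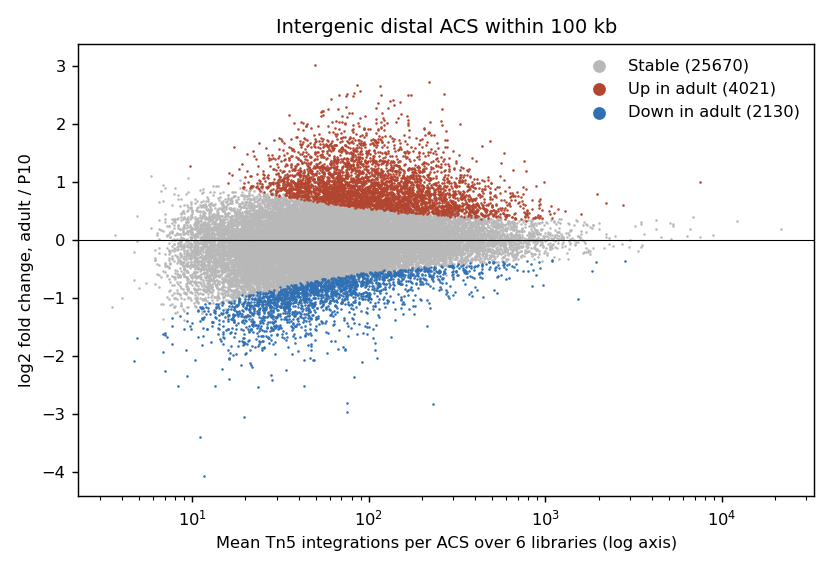
Mean number of Tn5 integrations over the 6 libraries (x, log axis) against the log2 fold change of adult over P10 (y) for each of the 31821 intergenic distal ACS within 100 kb, coloured by call. From the decile of lowest counts to the ninth the Up share goes from 0.283% to 23.7%, while the Down share is highest in the decile after the lowest (9.40%) and 4.78% in the highest.

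Up calls were more frequent in deeper sites and Down calls in shallower ones. Peaks were called on the concatenated libraries of each age, and every P10 library held more integrations than any adult library. Shallow sites may thus have entered more often through P10, and the part of this in the pattern was not tested. In the decile of sites with the fewest integrations (at most 19.5 per library), 0.283% were Up and 5.88% Down, with a median log2 fold change of -0.19. In the next 3 deciles, Down shares were 9.40%, 8.67% and 8.05%, the highest of the 10, beside Up shares of 1.98%, 5.53% and 8.61%. In the ninth decile (about 145 to 241 integrations), 23.7% were Up and 5.31% Down, with a median of 0.13, and in the highest 20.8% were Up and 4.78% Down. Between the lowest and the highest decile, the standard error of a site fell from a median of 0.48 to one of 0.19. The Up share rose with width up to 1 kb: 9.78% of the sites of at most 250 bp were Up and 15.3% of those over 600 and under 1000 bp. Among the 590 sites of 1000 bp or more, 34 (5.76%) were Up and 36 (6.10%) Down. The median mean counts of the last 2 classes were 204.8 and 464.0, and counts were not held constant between them.

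The share of Up sites was slightly higher far from genes, while the share of Down sites differed little between bands of distance. Up sites made up 11.7% within 10 kb, 11.6% from 10 to 25 kb, 13.1% from 25 to 50 kb and 13.3% from 50 to 100 kb. The 4 median mean counts were 65.8, 62.1, 60.2 and 58.3. The share beyond 50 kb exceeded that within 25 kb by 1.73 percentage points (95% interval 0.863 to 2.59). Without P10 library 1 the difference was 0.801 points, with an interval of -0.0935 to 1.695 that includes 0. Down sites made up 7.37%, 6.54%, 6.76% and 6.59% in the same bands. Their 95% Wilson intervals all overlapped, with 6.45 to 8.41% within 10 kb and 6.14 to 7.07% beyond 50 kb. Just inside the limit (90 to 100 kb), 13.6% of 1722 sites were Up and 6.91% Down, and just outside it (100 to 110 kb), 13.3% of 1581 were Up and 5.19% Down. Beyond 10 kb, 12.6% of 17818 upstream sites and 12.9% of 11249 downstream sites were Up, with overlapping 95% Wilson intervals of 12.1 to 13.1% and 12.3 to 13.5%. Neighbouring sites are not independent, so these intervals cover counting error only.

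**Figure D2:**
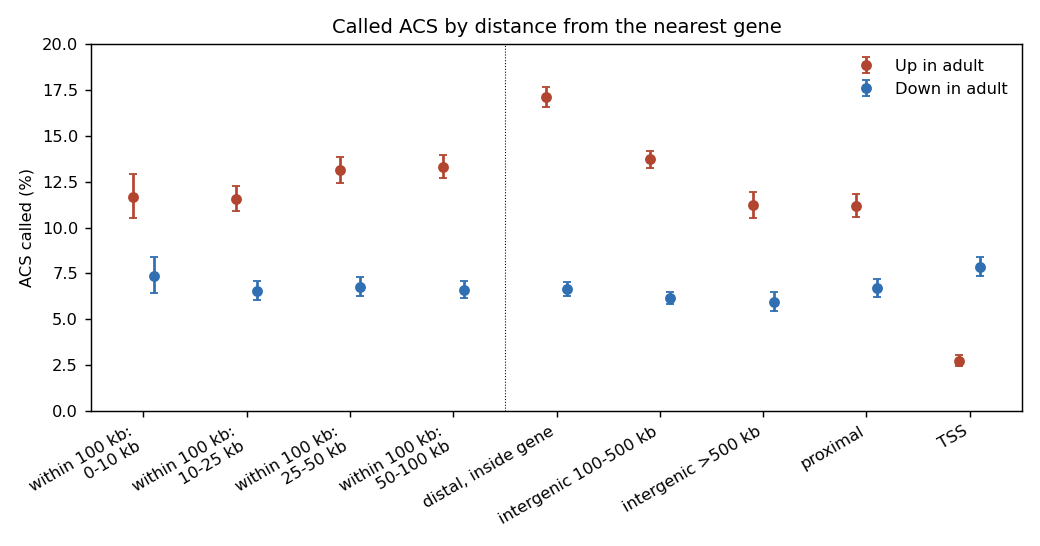
Percentage of ACS called Up (red) or Down (blue) in 4 bands of distance from the nearest gene within 100 kb (left of the dotted line) and in the other classes of ACS (right), with 95% Wilson intervals. Up shares within 100 kb lie between 11.6% and 13.3%, below the 17.1% of distal ACS inside genes and above the 2.73% of TSS ACS.

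Set beside other classes, the intergenic distal ACS took a share of 26.52%, 26.34% and 26.30% of all integrations in adults 4, 5 and 6 and of 26.25%, 25.57% and 25.46% in P10 libraries 1, 2 and 3. The adult mean was higher by 0.628 percentage points, and the adult values lay above the P10 values (exact permutation test, 2-sided, p = 0.1, the smallest that 3 libraries against 3 can give). By band, the sites from 50 to 100 kb held 9.14%, 9.53% and 9.44% in adults and 8.89%, 8.90% and 8.99% at P10, again without overlap (exact permutation p = 0.1), while the bands within 25 kb overlapped between ages. Distal ACS inside genes have the same lower limit of 10 kb from gene starts but were not matched to the set by distance. Mean log2 CPM of the intergenic set exceeded theirs by 0.03, 0.08 and 0.05 in adults and by 0.09, 0.13 and 0.11 at P10, a difference of -0.06 between ages without overlap (exact permutation p = 0.1). Relative to ACS at TSS the difference between ages was 0.15 and relative to intergenic ACS 100 to 500 kb away it was -0.04 (0.0130 without P10 library 1), both with overlapping libraries (exact permutation p = 0.2 and 0.6). Shares of all integrations, which are parts of a whole, also differed between ages in other classes. The adult mean was higher by 0.99 points in distal ACS inside genes, without overlap. It was higher by 1.185 points in intergenic ACS 100 to 500 kb away, with overlap. For ACS at TSS the difference was -2.74 points, without overlap. None of these comparisons could reach the usual threshold in this design. Up and Down shares were 17.1% and 6.65% inside genes, 13.7% and 6.16% at 100 to 500 kb, 11.2% and 5.93% beyond 500 kb, 11.2% and 6.71% in proximal ACS, and 2.73% and 7.87% at TSS.

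The 10 Up sites with the smallest p among those without overlap between the ages, at most 1 per gene, had log2 fold changes from 2.27 to 2.73. CPM of the adult libraries ran from 13.2 to 47.9 over these sites and those of the P10 libraries from 1.57 to 9.49. The first was on chromosome 1 (30010964 to 30011417), 23276 bp downstream of Hddc2, a nucleotide phosphatase gene, and inside the span of another gene. It had 39.4, 33.9 and 31.5 CPM in adults and 4.74, 4.49 and 6.50 CPM at P10, a log2 fold change of 2.73 ± 0.21 (adjusted p = 1.06e-08, edgeR). The next lay 19715 bp upstream of Sec11c, a subunit of the signal peptidase that trims secretory proteins entering the endoplasmic reticulum. Its values were 47.9, 33.1 and 43.7 CPM against 6.37, 6.92 and 8.35 CPM (log2 fold change 2.53 ± 0.20). Arrdc3, an arrestin-like adaptor of receptor trafficking, had a site 46177 bp downstream with 44.5, 34.9 and 36.1 CPM against 6.14, 9.49 and 8.41 CPM (2.27 ± 0.21). No P10 library exceeded 9.49 CPM at these sites. Sites near Samd3, Arhgap22, LRRTM1 (a synaptic adhesion protein), Pi15, Cbln1 (a secreted synapse organizer), Ccdc85a and Bnc2 (a zinc finger protein) followed, with log2 fold changes from 2.38 to 2.68.

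The 10 Down sites chosen in the same way were weaker sites in general, with P10 levels of 3.14 to 25.2 CPM at 9 of them. The strongest was on chromosome 4 (143571263 to 143571827), 22723 bp downstream of Tra2a, a splicing regulator. It had 2.53, 5.26 and 1.93 CPM in adults and 25.2, 24.9 and 20.7 CPM at P10, a log2 fold change of -2.84 ± 0.28 (adjusted p = 2.30e-07, edgeR). The site near Aurkc, an Aurora kinase gene, had 1.36, 1.17 and 0.645 CPM against 7.02, 7.35 and 8.78 CPM (-2.82 ± 0.34). The site near Mtus2, which codes for a microtubule-associated protein, had 1.18, 1.85 and 1.81 CPM against 8.97, 8.49 and 7.35 CPM (-2.37 ± 0.31). The next 3 lay near Bche (butyrylcholinesterase), Hist1h2bg (a histone H2B gene of a multigene family, so that its reads may be shared) and Ctdspl (a phosphatase that acts on the retinoblastoma protein). Ctdspl had the only highly accessible site of the 10, with 60.4, 72.9 and 69.7 CPM in adults and 112, 157 and 141 CPM at P10 (log2 fold change -1.02 ± 0.15). Sites near RGD1307595, Rbm43, Fam160a1 and Kap had log2 fold changes from -2.52 to -1.77. All 20 sites kept their call in each fit that left out 1 library.

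**Figure D3:**
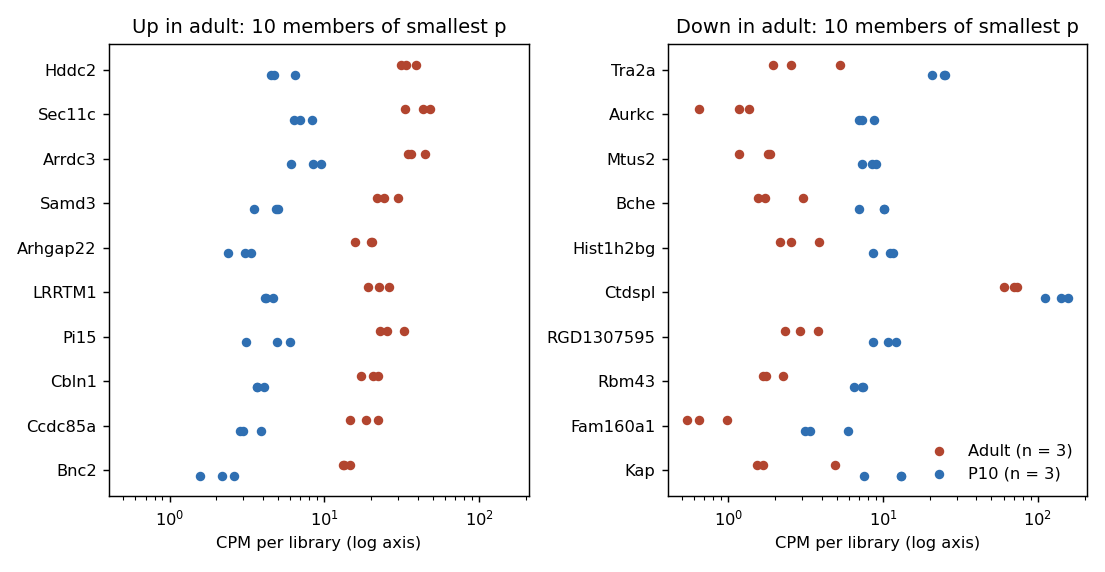
CPM per library (x, log axis) of the 10 Up (left) and 10 Down (right) intergenic distal ACS of smallest p, named by nearest gene, with 3 adult libraries (red) and 3 P10 libraries (blue) as points. Sites were chosen among those without overlap, and near Ctdspl, the most accessible at P10, the adult libraries lie between 60.4 and 72.9 CPM and the P10 libraries between 112 and 157 CPM.

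Called sites were also counted by nearest gene (over all ACS, 18.9% were called Up or Down). Of the 9028 nearest genes, 3915 had at least 1 called site and 1404 had at least 2, which were all Up at 657 genes, all Down at 188 and of both kinds at 559 (39.8%). The most Up sites near a gene were 6, at 9 genes: Aebp2, Arl4a, Clvs1, Gli2, Gpr6, Macc1, Mospd4, Olfm4 and Rab12. Gli2, a transcription factor of Hedgehog signalling, had 6 Up and no Down among 15 sites on both sides of the gene. Its strongest change was 8589 bp downstream, with 26.9, 25.4 and 24.6 CPM in adults against 6.93, 8.92 and 9.57 CPM at P10 (log2 fold change 1.60, adjusted p = 8.26e-06, edgeR), and 5 of its 6 calls held in every fit that left out 1 library. Over the 9 genes, 2 (Clvs1, of 8 called) to 5 (Gli2 and Macc1) calls held in this way. Macc1, a regulator of growth factor receptor expression, had 6 Up and 1 Down among 12. One of them, 13781 bp upstream, rose from 4.83, 5.28 and 6.03 CPM at P10 to 25.3, 23.6 and 22.8 CPM in adults, while the Down site 58531 bp upstream had 5.90, 8.35 and 7.45 CPM at P10 and 2.08, 2.63 and 3.09 CPM in adults. Sites of the same gene thus moved in opposite directions.

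Rab12, a small GTPase of endosomal traffic, had 6 Up among 14 sites, of which 5 lay between 34014 and 53290 bp downstream and 1 at 97453 bp. Mospd4 had the steepest change among these 9 genes. Its site 15010 bp downstream had 12.1, 11.1 and 11.1 CPM in adults and 2.46, 1.93 and 1.64 CPM at P10 (log2 fold change 2.50, adjusted p = 9.99e-07, edgeR). Olfm4, an olfactomedin of epithelial progenitors, had 6 Up among 12, with adult levels of 2.32 to 27.5 CPM. At Aebp2, a Polycomb cofactor, 3 of the 6 Up sites had their midpoint inside Plekha5, so that they are intergenic only with regard to Aebp2.

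The gene with the most Down sites was the microRNA gene Mir204, with 7 Down and no Up among 12 sites. All 12 had their midpoint inside Trpm3, the cation channel gene that hosts this microRNA, so that for these sites the term intergenic holds only for Mir204. miR-204 is an abundant beta cell microRNA, and its mature 5p form is printed from RefSeq (GRCr8) with the seed, bases 2 to 8, in capitals.
rno-miR-204-5p: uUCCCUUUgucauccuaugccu
The change was spread over both sides of the gene. The site 36051 bp downstream had 2.98, 2.05 and 4.13 CPM in adults and 6.69, 6.49 and 6.13 CPM at P10 (log2 fold change -1.10, adjusted p = 0.0187, edgeR). The site 21303 bp upstream had 5.33, 5.94 and 4.13 CPM against 7.72, 10.3 and 10.3 CPM (-0.87, adjusted p = 0.0314, edgeR). All 7 Down sites were without overlap between the ages, 4 of them held their call in every fit that left out 1 library, and the other 5 sites had log2 fold changes from -0.53 to 0.21 and overlapped. Mir204 lies between 240 and 250 Mb of chromosome 1, where 46 of 206 intergenic distal sites (22.3%) were Down and 12 (5.83%) Up, with a median log2 fold change of -0.26. Median deviations from each site's mean over the libraries were -0.16, -0.09 and -0.05 on the log2 scale in adults 4, 5 and 6 there, and -0.01, 0.16 and 0.19 in P10 libraries 1, 2 and 3. The 300 ACS outside the set in this window had a median log2 fold change of -0.14. The part of this regional shift in the Mir204 sites was not tested.

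Tra2a had the closest group of Down sites. All 5 of its sites, 22723 to 45365 bp downstream of the gene, were Down and without overlap. The 2 nearest to the gene had log2 fold changes of -2.97 and -2.84, and the other 3 lay between -1.08 and -1.02. Of this nearer pair, the site 25354 bp downstream was almost closed in adults. It had 0.452, 1.56 and 1.03 CPM in adults and 7.21, 9.77 and 6.82 CPM at P10. The site 22723 bp downstream kept 2.53, 5.26 and 1.93 CPM in adults. Gcnt1, a glycosyltransferase of O-glycan branching, had 5 Down of 6 in the same window of chromosome 1 as Mir204, Clec2dl1, a C-type lectin-like gene of a multigene family, had 5 of 7, Commd8 had 5 of 11, and Lamp5, Ankef1 and Foxa2 had 6 of 13, 5 of 9 and 5 of 14. In every fit that left out 1 library, calls held at 4 of these sites of Tra2a, 4 of Clec2dl1, 3 of Commd8, 2 of Gcnt1 and 2 of Lamp5, at 1 of Foxa2 and at none of Ankef1. The sites of Clec2dl1 had their midpoint inside LOC100911272, and most of those of Lamp5 had it inside Plcb4 or Pak7. Foxa2 codes for a pioneer factor of endoderm and islets. Its site 86646 bp upstream had 12.7, 8.47 and 9.93 CPM in adults and 19.0, 13.9 and 16.9 CPM at P10 (log2 fold change -0.68, adjusted p = 0.0552, edgeR), and the ACS beside it, 86366 bp upstream, was called Up with 6.60, 5.94 and 9.28 CPM against 5.35, 3.78 and 5.02 CPM (0.61, adjusted p = 0.191, edgeR).

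Lamp5, Ankef1 and Foxa2 all lie on chromosome 3, where Down calls were most frequent. On this chromosome 13.7% of 2008 sites were Down and 7.87% Up, and on the other chromosomes together 6.22% and 12.96%. Among windows of 10 Mb with at least 50 sites, the highest Down shares of all were on this chromosome between 130 and 140 Mb (32.8% of 125 sites, median log2 fold change -0.42), where Lamp5 and Ankef1 lie, and between 140 and 150 Mb (25.6% of 90 sites, median -0.32), where Foxa2 lies, followed by the window of Mir204. Other windows of chromosome 3 had lower shares, such as 15.3% between 110 and 120 Mb, 15.9% between 40 and 50 Mb and 16.8% between 170 and 180 Mb. A wider stretch from 110 to 160 Mb held 116 Down (19.3%) and 36 Up of 600 sites, with a median log2 fold change of -0.28. Median deviations in this stretch, taken as above, were -0.06, -0.05 and -0.15 in adults 4, 5 and 6 and 0.17, 0.10 and 0.11 in P10 libraries 1, 2 and 3, on the log2 scale. The ages did not overlap there. ACS of other classes in the same stretch moved likewise, with Down shares of 20.9% in distal ACS inside genes and 26.4% at TSS, and the Down share of the intergenic set stayed between 11.0% and 19.5% when any library was left out and was 24.3% after cyclic loess scaling. The bounds of this stretch were chosen after its values were seen. Chromosome 1 as a whole (8.52% Down), chromosome 10 (7.98%) and chromosome X (10.1%) also had more Down than Up sites. Chromosomes 18 and 19 had the highest Up shares (19.5% and 18.9%). All adult rats were male and the P10 pools held both sexes, so for chromosome X age and sex cannot be told apart. GC content was not analysed here, and its part in these regional differences was not tested.

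**Figure D4:**
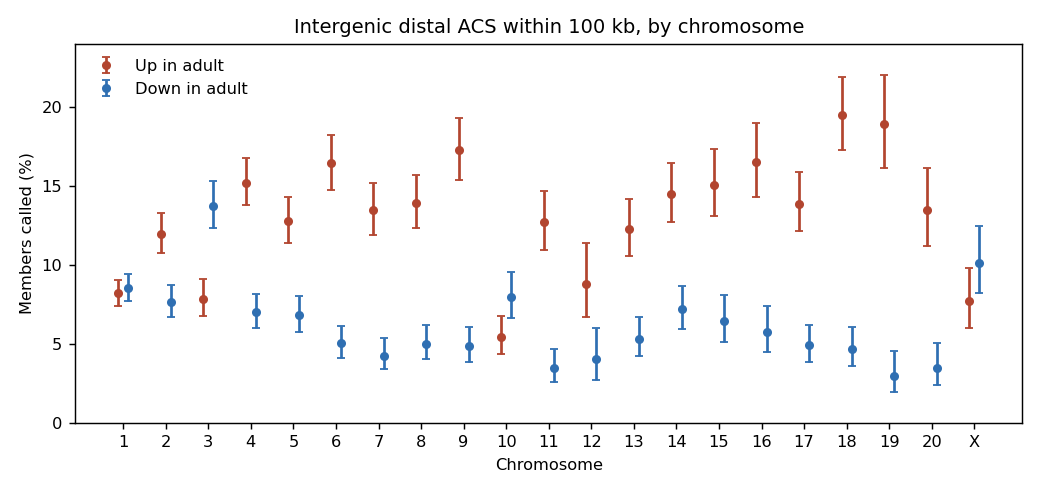
Percentage of intergenic distal ACS within 100 kb called Up (red) or Down (blue) on each chromosome (x), with 95% Wilson intervals. Down exceeds Up on chromosomes 1, 3, 10 and X, and chromosome 3 has the highest Down share (13.7%).

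The calls of neighbouring sites were compared by the gap between them. For pairs of neighbours less than 1 kb apart (3160 pairs), log2 fold changes correlated with r = 0.20, and after an Up site the next was Up in 20.7% and Down in 2.48%. After a Down site, the next was Down in 22.1% and Up in 6.90%. At gaps of 1 to 5 kb (4169 pairs), r was 0.16, with shares of 22.7% Up after an Up site and 11.9% Down after a Down site. At gaps of 5 to 20 kb, the class with the most pairs (9586), r was 0.07. There the next site was Up in 19.0% after an Up site, but after a Down site it was Up in 12.8% and Down in 9.59%. At gaps of 20 to 100 kb (9251 pairs), r was 0.09, and the next site was Up in 16.9% after an Up site and Down in 10.9% after a Down site. In order of gap, the first site was Up in 242 of 3160, 542 of 4169, 1392 of 9586 and 1197 of 9251 pairs. It was Down in 145, 268, 626 and 672 of them. These base counts differ between gaps, so the shares above cannot be compared between gaps without them. Neighbours share libraries and local sequence, and these values are given as a description. Log2 fold changes of sites were also compared with that of the TSS ACS of their nearest gene. For 20100 sites at 5570 genes with a TSS ACS, r between both log2 fold changes was 0.13. Sites of the same gene share its TSS value, and the part of regional shifts in this r was not tested. At the 168 genes with an Up TSS, 21.9% of 755 sites were Up and 5.30% Down. At the 431 genes with a Down TSS, 8.45% of 1514 sites were Up and 13.01% Down, and at genes with a stable TSS 13.6% and 6.21%.

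The 8 gene lists, read by nearest gene, had Up and Down sites side by side, and the median log2 fold change of each lay between -0.06 and 0.03, near that of all ACS. Together they had 636 sites, of which 92 (14.5%) were Up and 60 (9.43%) Down. Of these, 45 lay on chromosome 3 between 110 and 160 Mb, with 1 Up and 14 Down, and the 591 elsewhere had 91 Up (15.4%) and 46 Down (7.78%). No list was tested as a set.

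Beta cell transcription factor genes had 105 sites, with 10 Up, 11 Down and 84 stable. Apart from Pax6 and Neurod1, the site of smallest p was 28932 bp downstream of Nkx6-1, a homeodomain factor of beta cell identity, with 20.1, 17.3 and 16.0 CPM in adults and 8.65, 8.99 and 8.56 CPM at P10 (log2 fold change 1.03 ± 0.21, adjusted p = 0.00183, edgeR). The ages were widely apart at this broad site of 972 bp. Of the 11 Down sites, 5 lay near Foxa2, on the stretch of chromosome 3 described above. Genes of insulin secretion had 111 sites, with 18 Up and 10 Down. A site 33062 bp downstream of Pcsk1, the convertase that starts proinsulin cleavage, had 15.5, 10.0 and 13.2 CPM in adults and 4.18, 3.28 and 2.70 CPM at P10 (1.92 ± 0.26, adjusted p = 2.02e-05, edgeR). Of the 9 Pcsk1 sites, 1 other was called, Down with -0.92. Cpe, the carboxypeptidase that follows it in insulin processing, had 3 Up and 1 Down among 7 sites, and the most accessible of them had 52.7, 44.6 and 46.2 CPM against 23.2, 22.9 and 24.4 CPM (1.03 ± 0.17). A site upstream of Syt7, a calcium sensor of granule exocytosis, had 10.8, 10.8 and 6.19 CPM against 4.46, 2.35 and 4.76 CPM (1.25 ± 0.29). The Up sites given with CPM did not overlap between the ages. In the other direction, Slc30a8, the granule zinc transporter, had no Up and 2 Down among 10 sites, Snap25, a SNARE protein of exocytosis, 2 Down among 6, and Chgb, a granin of secretory granules, 2 Down among 6 (genes named after their values were seen). Snap25 and Chgb lie between 130 and 140 Mb of chromosome 3, the window with the highest Down share.

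Cell cycle genes had 67 sites, with 11 Up and 5 Down, and the 4 with the smallest p were Up. They lay near Myc (log2 fold change 1.64 ± 0.27), Ccnd2, a D cyclin (1.09 ± 0.20), E2f3, an E2F factor (1.32 ± 0.26), and Mycn, a Myc family member (1.23 ± 0.27). The Myc site, 63226 bp downstream, had 17.6, 11.6 and 12.4 CPM in adults and 2.88, 6.21 and 4.44 CPM at P10, and it was the only called one of 6 Myc sites, whose median log2 fold change was -0.39. Called sites of this list were Down near Ccnd1, another D cyclin (-0.98), and near Cdk6, a cyclin-dependent kinase (-1.14, beside an Up site with 0.66). Near Cdkn1a and Cdkn2b, inhibitors of such kinases, there were Up sites with 0.63 and 0.55, and Cdkn2b also had a Down site. These 4 genes were named after their values were seen. Growth hormone, prolactin and insulin-like growth factor genes had 79 sites, with 7 Up and 5 Down. Irs2, an adaptor of insulin and IGF receptors, had 3 Up and 1 Down among 16, and its site 17220 bp downstream had 17.4, 15.1 and 12.3 CPM against 5.996, 2.71 and 4.07 CPM (1.79 ± 0.27, adjusted p = 5.44e-05, edgeR). Smaller changes were measured near Tph1, the enzyme of serotonin synthesis (1.05 ± 0.26), and Igf1r (0.66 ± 0.17). With total reads as library sizes the Igf1r site turned to -0.21.

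Disallowed genes, which mature beta cells keep low, had 35 sites, with 6 Up and 5 Down. Up sites included one 83663 bp downstream of Maf (15.4, 13.5 and 21.01 CPM in adults against 5.07, 4.07 and 3.65 CPM at P10, log2 fold change 1.95 ± 0.25) and one upstream of Cxcl12 (1.92 ± 0.27). Slc16a1, the monocarboxylate transporter excluded from beta cells, had 1 Up and 3 Down among 10. Its upstream site had 15.5, 11.98 and 11.7 CPM against 6.51, 4.49 and 6.98 CPM (1.12 ± 0.24), and a site 47132 bp downstream had 0.181, 2.44 and 1.93 CPM against 3.44, 4.28 and 4.18 CPM (-1.42 ± 0.45, adjusted p = 0.0457, edgeR). The latter was not called without adult 4, where its log2 fold change was -0.84. Notch and progenitor genes had 115 sites, with 15 Up and 13 Down. Hes1, the Notch effector that represses endocrine differentiation, had 3 Up and 1 Down among 14, the strongest with 23.2, 19.3 and 18.4 CPM against 9.90, 7.85 and 5.82 CPM (1.37 ± 0.23). Hey1, another Notch target, and Id2, an inhibitor of basic helix-loop-helix factors, had Up sites with log2 fold changes of 1.08 ± 0.19 and 1.14 ± 0.23. Id2 had 4 Up and 2 Down among 7 sites, the lower of the Down ones with -1.42, and at both Down sites the ages overlapped. A site downstream of Dll1, a Notch ligand, had 3.34, 4.29 and 4.90 CPM in adults and 8.37, 9.06 and 11.1 CPM at P10 (-1.19 ± 0.27), while 2 of the 11 Dll1 sites were Up, the larger with 0.80. Dll1 lies in the same window of chromosome 1 as Mir204. Jag1, another ligand, named after its values were seen, had 3 Down among 7 sites, all with negative log2 fold changes, on the stretch of chromosome 3 described above. At 2 of these 3 the ages overlapped, and none was called in every fit that left out 1 library.

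Nuclear receptor and clock genes had 42 sites, with 10 Up and 4 Down. Thrb, a thyroid hormone receptor, had 4 Up among 6, and its site 54932 bp upstream had 16.4, 11.6 and 16.8 CPM in adults and 5.67, 6.85 and 5.66 CPM at P10 (log2 fold change 1.30 ± 0.24, adjusted p = 5.15e-04, edgeR). Near Nr1d2, a repressor of the clock, a site had 10.7, 6.82 and 10.7 CPM against 3.49, 2.21 and 1.69 CPM (1.91 ± 0.30), and near Bhlhe40 another had 1.17 ± 0.29. AP-1 and immediate early genes had 82 sites, with 15 Up and 7 Down. Klf6, a zinc finger factor, had 5 Up and no Down among 9, the site 64260 bp upstream with 9.58, 9.84 and 9.67 CPM against 3.81, 3.71 and 3.75 CPM (1.36 ± 0.25). Egr2 had 1 Up (1.71 ± 0.31) and 1 Down (-1.48) among 3 sites, and Fosl2, a Fos-family subunit of AP-1, had 2 Up among 5, the larger with 1.53 ± 0.30. Jun, named after its values were seen, had 4 Up and 2 Down among 19. Background shares for all these counts are those of all ACS given above, 12.3% Up and 6.63% Down.

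**Figure D5:**
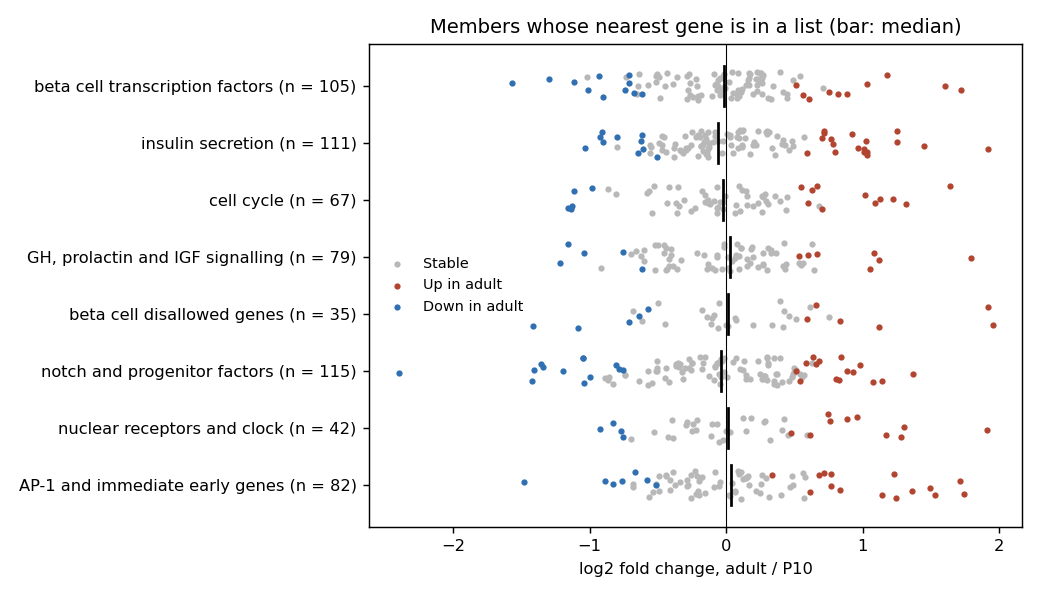
Log2 fold change of adult over P10 (x) for every intergenic distal ACS whose nearest gene is in one of 8 lists (rows, with the number of sites), coloured by call, with a black bar at the median. Each median lies between -0.06 and 0.03 and every list has Up and Down sites.

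Markers of islet cell types were read as the summed CPM of all ACS of each list. Beta cell markers had 105 ACS at 8 of 10 genes, with 1065 to 1256 CPM in adults and 1008 to 1322 CPM at P10. Alpha cell markers had 1278 to 1496 CPM against 1171 to 1303 CPM, markers of delta, PP and epsilon cells 648 to 769 against 655 to 713, acinar markers 572 to 631 against 590 to 593, duct markers 429 to 489 against 386 to 450 and endothelial markers 565 to 662 against 528 to 566. Those ranges overlapped, the endothelial ones narrowly. The other 3 lists were higher in adults without overlap: immune markers (129 to 144 against 115 to 126 CPM, 10 of 12 genes), mesenchymal markers (563 to 650 against 525 to 542 CPM, all 12 genes) and Schwann and neural markers (666 to 783 against 542 to 593 CPM, 7 of 10 genes). Intergenic distal ACS among these 3 lists were 1 Up and 0 Down of 10, 5 Up and 3 Down of 24, and 6 Up and 0 Down of 21. Among beta cell markers they were 5 Up and 2 Down of 44, and among alpha cell markers 3 and 3 of 30. Markers of delta, PP and epsilon cells had 1 Up and 2 Down of 20, and acinar markers 2 and 3 of 22. Duct markers had 1 and 1 of 21, and endothelial markers 2 and 3 of 29. Over all ACS, 12.3% were Up and 6.63% Down. The marker sums move with the Up calls of the set, and their part in them was not tested.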

How the data were processed

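Accessibility was measured by ATAC-seq in 3 adult and 3 P10 islet libraries. The authors aligned reads to Rn5 with BWA 0.7.13 and SAMtools 1.3, discarded mitochondrial and low-quality alignments, called peaks with MACS2 2.1.1 on concatenated libraries of each age, and counted Tn5 integrations per ACS and library with pyDNase. Duplicate removal is not stated. They deposited these raw counts with the nearest gene. Columns of their own edgeR comparison (log2 fold change, log2 CPM, F, p and FDR) were not used.

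Of 101941 entries, 101603 were distinct ACS and each was counted once. Counts of all ACS were fitted with edgeR 4.0.16 (R 4.3.3, TMM, quasi-likelihood, age as the only term, no filter), with Benjamini-Hochberg adjustment over all ACS. A simulation with 101603 ACS gave 200 of them a log2 change of 1, up or down. It recovered the right direction for 35.5% of the 200, and it also called 21 unchanged ACS. In the data 18.9% of all ACS were called, and the adjusted p depends on how many ACS change. The 35.5% therefore cannot be read as the sensitivity of the fit to the data. Where the file gave no symbol, gene IDs were matched to RefSeq names (GRCr8), which held 98.96% of the ACS' gene IDs. The sites, gene lists and motifs were chosen with earlier results of these data known. Named sites are those of the reporter table, the 10 Up and 10 Down of smallest p without overlap (1 per gene), up to 4 called sites of smallest p per list, and the genes with most sites, Up sites or Down sites. Replicates are separate animals or litters. Alternatives were limma 3.58.1 voom, DESeq2 1.42.0, other library sizes, filterByExpr, other limits and leaving out each library; cyclic loess, autosomes, chromosome 3 and the stricter intergenic set were added after seeing the data.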

Additional observations from a re-analysis of the deposited data

How the results depend on the processing

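Of 4021 Up and 2130 Down sites, 2289 and 611 remained at an adjusted p under 0.05, and of the 92 Up and 60 Down sites of the 8 gene lists 57 and 15. With total reads as library sizes there were 324 Up and 19023 Down sites (10 and 382 in the lists), the Up share beyond 50 kb exceeded that within 25 kb by 0.399 points, and the Igf1r site turned to -0.21 (of the 52 named sites, 31 kept their call and 20 lost it). With sums in ACS and no TMM there were 3219 Down sites. Under voom, DESeq2, filterByExpr and cyclic loess, all 52 named sites kept their call, and counts stayed within 1.5 times. The cause of these shifts was not tested. Leaving out 1 library gave 2529 to 4373 Up and 1025 to 2238 Down sites, both lowest without P10 library 2 (Down was 1348 without P10 library 3), with 63 to 99 Up and 30 to 59 Down in the lists (30 without P10 library 2 and 35 without P10 library 3). It gave differences of 0.801 (without P10 library 1, with a 95% interval of -0.0935 to 1.695) to 2.13 points in the Up share by distance, and a mean log2 CPM relative to intergenic ACS 100 to 500 kb away that differed between ages by -0.0765 to 0.0130, positive without P10 library 1. The sites with midpoint in no listed gene had 3377 Up and 1745 Down, and those off chromosome 3 had 3863 and 1854. No paired analysis was possible because the adult and P10 libraries share no replicate number. Low counts limit the sites: the median standard error was 0.48 in the decile with the fewest integrations and 0.19 in that with the most. Since fits without a library lose samples, lower counts there follow in part from the smaller design.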
